A study of Mus musculus with 17 samples.

Results

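The genes described here are 10 regulators and markers of multiciliated cell fate, picked by symbol from the 31245 genes of a mouse lung count table: Foxj1, Mcidas, Gmnc, Myb, Rfx2, Rfx3, Ccno, Trp73, Deup1 and Tppp3. All 10 were found in the table. The values come from RNA sequencing of whole lungs of 17 mice in 6 groups, made by 3 genotypes and 2 kinds of drinking water given for 14 weeks. Vehicle mice drank sucrose water, and PFOA mice drank the same water with a high dose of perfluorooctanoic acid (PFOA), a persistent fluorinated surfactant. WT mice were Sv/129 animals bought from a supplier. PPARα null mice (KO) and mice with the human receptor in place of the mouse one (hPPARa KI, here KI) came from breeding pairs of PPARα null and human PPARα heterozygous animals, so genotype and source of the mice cannot be told apart. All mice ate a custom diet modelled on what human adults eat. WT vehicle held 2 mice (1 female, 1 male), WT PFOA 3 (1 female, 2 males), KO vehicle and KO PFOA 3 females each, and KI vehicle and KI PFOA 3 each (2 females, 1 male). Libraries are named by mouse number.

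Multiciliated cells line the airways and carry many motile cilia that move mucus. During their differentiation a fall in Notch signalling lets GEMC1 (the product of Gmnc) and multicilin (Mcidas) act with E2F factors, which turn on centriole amplification and the later regulators. FOXJ1 and the RFX factors then drive the genes for dynein arms, radial spokes and other parts of the motile axoneme. FOXJ1 is commonly used to mark the mature cell, while multicilin is needed mainly while the cell is forming.

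Total counts per library ranged from 4116118 to 9237356, which puts 3 counts at 0.325 to 0.729 CPM (a gene's counts scaled to a common library total). A pair of libraries stood apart in composition. Protein-coding genes took 65.3% of the counts in WT vehicle library 122 and 61.3% in KO vehicle library 137, against 74.4% to 80.4% in the other 15. KO vehicle library 137 was also the shallowest. Ppara, the targeted gene, was at 6.12 and 7.19 CPM in the WT vehicle libraries, 4.38 to 6.94 CPM in WT PFOA, 8.82 to 11.7 CPM in the 6 KO libraries and 9.08 to 20.4 CPM in the 6 KI libraries. A lower Ppara level in KO was thus not seen, and the names KO and KI below are those of the labels.

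The 10 genes spanned a wide range of abundance. Levels between genes are compared here as TMM-normalized CPM divided by the summed length of each gene's exons in kilobases, over all 17 libraries. Tppp3, which encodes a tubulin-binding protein abundant in ciliated cells, stood at 93.2 ± 14.8 CPM per kb (SD, n = 17). Foxj1 followed at 13.7 ± 5.35, and the ranges of these leading genes (69.7 to 135 and 7.46 to 26.6) did not overlap. Myb (3.94 ± 1.68), Rfx2 (3.23 ± 0.841) and Rfx3 (3.09 ± 0.476) came next and did not differ beyond their spread. Trp73 (1.64 ± 0.756) and Deup1 (0.898 ± 0.375) lay lower, with overlapping ranges. Ccno (0.578 ± 0.358), Gmnc (0.298 ± 0.234) and Mcidas (0.23 ± 0.265), the early regulators, closed the order and overlapped one another. Mcidas was read by 1 to 12 counts per library and 61 in all, Ccno by 2 to 18 and Gmnc by 3 to 27.

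Mcidas and Ccno are neighbours on chromosome 13 of GRCm38, the build of the files (mm10). Ccno (ENSMUSG00000042417), which encodes a cyclin-like protein needed for centriole amplification, spans 112987802 to 112990777 on the plus strand. Mcidas (ENSMUSG00000074651) spans 112993845 to 113000394 on the same strand. RefSeq start windows of this build were found for 8 of the 10 genes, with 11 windows in all. The letters GTTGCC, part of the X-box bound by RFX factors, were searched on both strands in the 250 bases before each start. They stood in 4 of the 11 windows (Ccno, Deup1, Mcidas and Rfx2), against 10.4% of all 32851 windows. The forkhead letters TGTTTAC were in 0 of the 11 (3.17% of all), the E2F letters TTTCGCGC or TTTGGCGC in 0 (0.654% of all), and the MYB letters TAACGG or TAACTG in the Deup1 window alone (10.5% of all). Such matches describe letters and not bound sites. Upstream stretches of Ccno, Mcidas and Rfx2, which hold the X-box letters outside the annotated span of the gene itself, are shown because RFX factors are themselves in the set. Capitals mark GTTGCC.
Ccno, chr13:112987552-112987801, plus strand: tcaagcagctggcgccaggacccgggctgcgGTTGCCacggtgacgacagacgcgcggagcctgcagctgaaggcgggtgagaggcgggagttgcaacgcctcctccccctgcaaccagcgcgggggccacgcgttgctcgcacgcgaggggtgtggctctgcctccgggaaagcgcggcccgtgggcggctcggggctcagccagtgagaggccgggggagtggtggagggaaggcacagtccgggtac
Mcidas, chr13:112993618-112993844, plus strand: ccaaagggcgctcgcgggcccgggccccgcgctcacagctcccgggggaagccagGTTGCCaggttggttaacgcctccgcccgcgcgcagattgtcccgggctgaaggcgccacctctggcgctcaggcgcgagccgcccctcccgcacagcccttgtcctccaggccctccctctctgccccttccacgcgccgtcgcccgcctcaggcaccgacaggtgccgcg
Rfx2, chr17:56831014-56831258, minus strand: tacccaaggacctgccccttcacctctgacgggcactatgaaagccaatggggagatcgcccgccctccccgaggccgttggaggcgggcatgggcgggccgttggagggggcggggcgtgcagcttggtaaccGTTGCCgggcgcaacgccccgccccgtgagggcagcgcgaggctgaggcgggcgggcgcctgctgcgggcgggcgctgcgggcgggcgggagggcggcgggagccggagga
Read along the gene's own strand, the letters ended 213 bases before the annotated start of Ccno, 166 before that of Mcidas and 105 before that of Rfx2, where each printed stretch ends.

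Whether PFOA changed the regulators was first asked within WT mice. Foxj1 (ENSMUSG00000034227, chromosome 11, 116330704 to 116335399, minus strand), the master regulator of motile cilia, was measured at 28.6 and 69.7 CPM in WT vehicle libraries 107 and 122. On PFOA it was at 21.7, 19.6 and 23 CPM in libraries 50, 56 and 65. Every exposed library therefore lay below both vehicle libraries, but the vehicle libraries differed from each other far more than the exposed libraries did. Its log2 fold change on PFOA was -1.19 (SE 0.32), with an adjusted p of 0.458 (edgeR, Benjamini-Hochberg over 26946 genes).

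Myb (ENSMUSG00000019982), a transcription factor that acts early in multiciliated cells and also in dividing blood precursors, had 27.6 and 84.1 CPM on vehicle and 21.7, 22.2 and 29.9 CPM on PFOA. The groups overlapped, because exposed library 65 lay above vehicle library 107. Trp73 (ENSMUSG00000029026), whose p73 protein acts upstream of Foxj1, had 7.72 and 23.7 CPM on vehicle and 6.71, 4.68 and 8.09 CPM on PFOA, again with an overlap at libraries 107 and 65. Rfx3 (ENSMUSG00000040929), a ciliogenic RFX factor, had 36.3 and 47.9 CPM on vehicle against 26.7, 27.2 and 30.3 on PFOA, with no overlap. Tppp3 (ENSMUSG00000014846) had 205 and 249 CPM on vehicle against 129, 159 and 162 on PFOA, also with no overlap. These 2 genes had the smallest ratio between the 2 vehicle libraries among the 5 members described so far.

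In WT mice, 5 of the 10 members had an unadjusted p under 0.05 and all 5 were lower on PFOA. Besides Foxj1 these were Myb (log2 fold change -1.18, SE 0.36), Trp73 (-1.26, SE 0.35), Rfx3 (-0.58, SE 0.17) and Tppp3 (-0.60, SE 0.15). Of all genes tested, 7.34% had such a p, and 4.22% had it with a lower level on PFOA. A call required an adjusted p below 0.2 together with a change of more than 2-fold. With edgeR no member was called, nor was any other gene (0% of all). DESeq2 called 0 members as well (0.0891% of all genes), although Tppp3 had an adjusted p of 0.0576 with it and a fold change under 2. The median log2 fold change of the 10 members was -0.83, against 0.037 over all genes.

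The other 5 members did not pass in WT mice. Deup1 (ENSMUSG00000039977), which encodes the organizer of the deuterosomes from which most centrioles of these cells arise, had 3.59 and 4.08 CPM on vehicle and 1.01, 2.92 and 2.05 CPM on PFOA. Its libraries did not overlap, and its log2 fold change was -0.95 (SE 0.51, edgeR adjusted p = 0.713). Gmnc (ENSMUSG00000068428) had a log2 fold change of -1.27 (SE 0.84), Ccno one of -0.72 (SE 0.76) and Rfx2 (ENSMUSG00000024206) one of -0.23 (SE 0.29). Mcidas alone had a positive value, 0.41 (SE 1.18), from 0.666 and 0.163 CPM on vehicle against 0.633, 0.292 and 0.771 on PFOA. In all, 4 members (Foxj1, Rfx3, Deup1 and Tppp3) had every PFOA library below both vehicle libraries, against 10.8% of all genes.

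**Figure D1:**
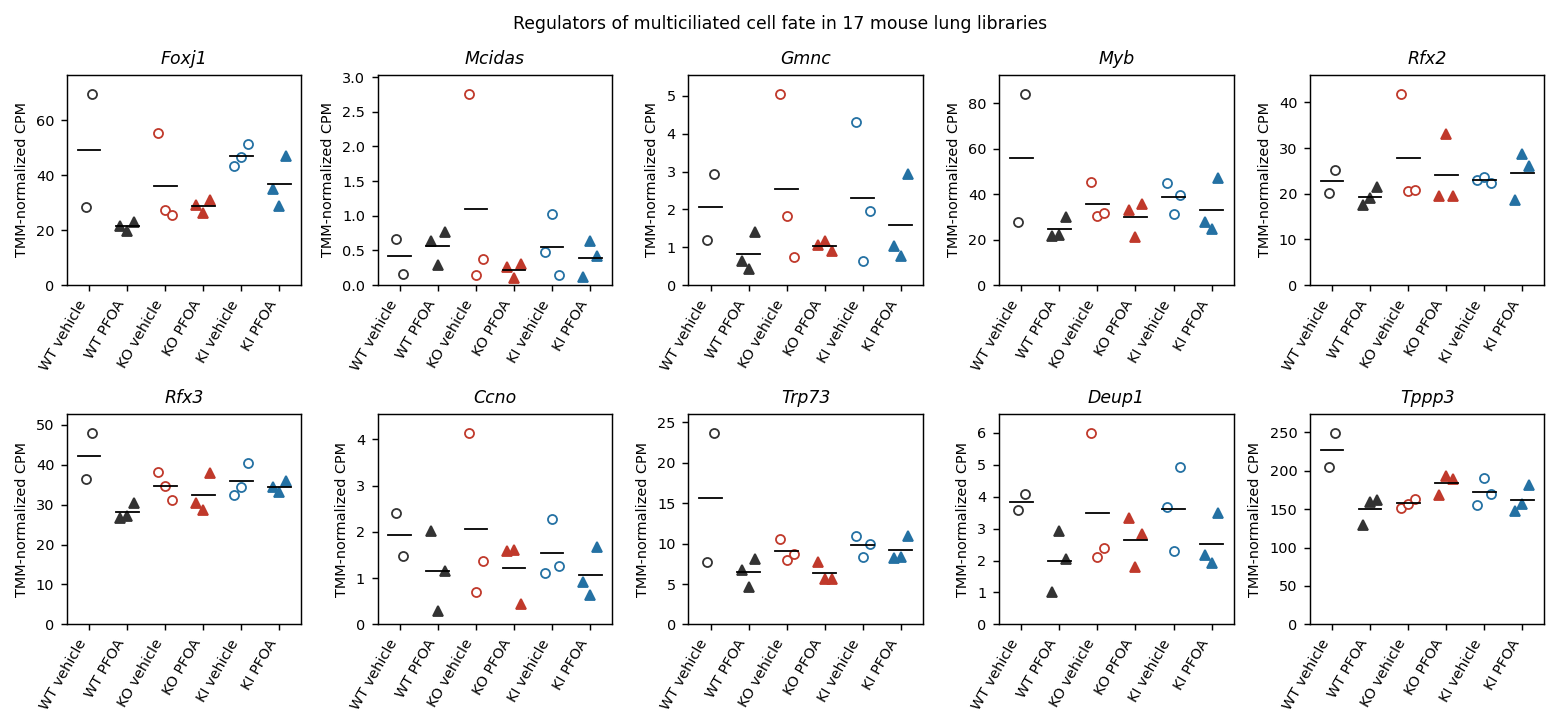
TMM-normalized CPM (vertical axes, each starting at 0) of the 10 genes in 6 groups, 1 point per library, with open circles for vehicle, filled triangles for PFOA and bars for group means. WT vehicle library 122 is the highest point for Foxj1 (69.7 CPM), Myb (84.1 CPM) and Trp73 (23.7 CPM), and KO vehicle library 137 for Mcidas (2.76 CPM) and Ccno (4.14 CPM).

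The size of the WT difference in Foxj1, Myb and Trp73 rested on WT vehicle library 122. Without it, 1 member (Tppp3) had an unadjusted p under 0.05 (2.16% of all genes did) and all had an edgeR adjusted p of 1, with log2 fold changes of -0.41 (SE 0.33) for Foxj1, -0.16 (SE 0.35) for Myb and -0.24 (SE 0.33) for Trp73. Rfx3 was at -0.37 (SE 0.20), Tppp3 at -0.45 (SE 0.18), Deup1 at -0.85 (SE 0.64) and Ccno at -1.02 (SE 0.92). All 10 members had a negative value in that fit, with a median of -0.39. Without WT vehicle library 107 instead, 3 members were called (edgeR adjusted p of 0.0176 for Foxj1, 0.0171 for Myb and 0.011 for Trp73), with log2 fold changes of -1.70, -1.77 and -1.86. In that fit 6.25% of all genes were called, against 0% of all genes in the fit without library 122. In each of these fits a single vehicle library stood for its group and was taken to vary like the other groups. Library 107 came from the female WT vehicle mouse and library 122 from the male. Sex and mouse therefore cannot be told apart between these vehicle libraries.

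**Figure D2:**
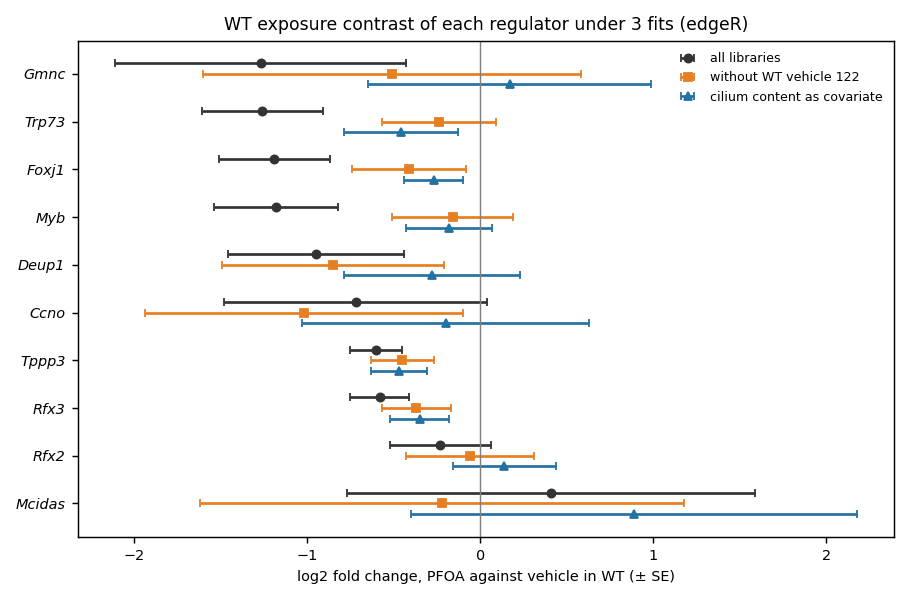
Log2 fold change of PFOA against vehicle in WT mice (horizontal axis) with its standard error for each gene from edgeR, in the fit of all libraries, without WT vehicle library 122, and with cilium content as a covariate. Foxj1 moved from -1.19 to -0.41 and -0.27 across the 3 fits, while Tppp3 stayed at -0.60, -0.45 and -0.47.

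In KO mice, 0 of the 10 members had an unadjusted p under 0.05 between PFOA and vehicle, against 9.79% of all genes, and 0 were called (0% of all genes). Foxj1 stood at 55.5, 27.3 and 25.4 CPM in vehicle libraries 137, 145 and 149, and at 29.0, 26.2 and 31.1 CPM in PFOA libraries 52, 154 and 155. The exposed libraries thus lay within the vehicle range, above libraries 145 and 149 in 2 of 3 cases. Its log2 fold change of -0.31 (SE 0.29) turned to 0.12 without KO vehicle library 137. Mcidas had the largest value, -2.15 (SE 1.1, edgeR adjusted p = 0.532), and was -0.26 without the same library, which held 2.76 CPM against 0.141 and 0.377 in the other vehicle libraries. Trp73 was the only member with all PFOA libraries (7.70, 5.64 and 5.68 CPM) below all vehicle libraries (10.6, 8.02 and 8.66 CPM), against 5.99% of all genes. Its log2 fold change was -0.51 (SE 0.32, edgeR adjusted p = 0.593). Tppp3 had a positive value, 0.22 (SE 0.14), with 152 to 163 CPM on vehicle and 168 to 193 CPM on PFOA. All 3 KO PFOA libraries carried one second index that no KO vehicle library carried, so exposure and index cannot be told apart within KO.

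In KI mice, 0 of the 10 had an unadjusted p under 0.05, against 2.59% of all genes, and 0 were called (0% of all genes). Foxj1 had 43.5, 46.7 and 51.3 CPM in vehicle libraries 102, 116 and 135, which formed the tightest vehicle group for this gene. On PFOA it had 35.0, 28.8 and 47.1 CPM in libraries 57, 80 and 139, with library 139 inside the vehicle range. Its log2 fold change was -0.35 (SE 0.29). The others ranged from -0.55 for Ccno to 0.084 for Rfx2, and no member had all PFOA libraries below all vehicle libraries (3.79% of all genes did). The median over the members was -0.29 in KI and -0.33 in KO, against 0.0048 and -0.033 over all genes. Without KO vehicle library 137 the KO median was 0.046, with 5 of the 10 members lower on PFOA, so the KO median rested on that library.

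In an additive fit of genotype and exposure over all 17 libraries, all 10 members had a negative exposure term, with a median of -0.58 against -0.012 over all genes. It had an unadjusted p under 0.05 for 6 of them: Foxj1 (log2 fold change -0.58, SE 0.18), Trp73 (-0.58, SE 0.21), Deup1 (-0.58, SE 0.27), Myb (-0.51, SE 0.21), Rfx3 (-0.22, SE 0.10) and Gmnc (-0.97, SE 0.43). The share was 8.27% of all genes, or 4.46% with a lower level on PFOA. None was called (0% of all genes), with edgeR adjusted p values of 0.468 for Foxj1 and 0.486 or more for the other 9. Leaving out libraries 122 and 137, a choice made after the values were seen, left a single WT vehicle library. The exposure term was then -0.21 for Foxj1, -0.23 for Trp73, -0.35 for Deup1 and -0.15 for Myb. It was -0.12 for Rfx3 and -0.45 for Gmnc, and that of Rfx2 turned to 0.10.

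The difference between the exposure effects was tested directly. Against WT, 2 members differed in KO at an unadjusted p under 0.05 (Tppp3 by 0.82, SE 0.21, and Rfx3 by 0.48, SE 0.23, on the log2 scale), where 7.44% of all genes did. In KI, 3 members differed (Trp73 by 1.17, SE 0.47, Rfx3 by 0.53, SE 0.23, and Tppp3 by 0.52, SE 0.21), where 4.56% of all genes did. No member was called in either test (0% of all genes in both), and the edgeR adjusted p was 0.669 for Tppp3 in KO and 1 for all members in KI. The sign means that the value on PFOA relative to vehicle was lower in WT. Both tests share the WT libraries. Without library 122, which left a single WT vehicle library, the KI differences were 0.15 for Trp73, 0.31 for Rfx3 and 0.36 for Tppp3. Those in KO were 0.67 for Tppp3 and 0.27 for Rfx3. Without library 107 instead, the KI differences were 1.77, 0.72 and 0.65 in the same order, and the KO differences 0.95 and 0.67.

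Genotypes were also compared at fixed exposure. All KO mice were female while both WT groups held males, so KO against WT also compared the sexes in part. On vehicle, KO was below WT in Tppp3 (log2 fold change -0.53, SE 0.15, edgeR adjusted p = 0.182) and Trp73 (-0.79, SE 0.34), the 2 members with an unadjusted p under 0.05 where 14.2% of all genes had one, so that the share of members is near that of all genes. Tppp3 stood at 205 and 249 CPM in WT vehicle and at 152, 157 and 163 CPM in KO vehicle libraries, with no overlap and a difference under 2-fold. For Trp73 the value without library 122 was 0.23, the opposite sign. KI vehicle libraries held 155, 190 and 170 CPM of Tppp3 (log2 fold change -0.40, SE 0.15), the single member with an unadjusted p under 0.05 against WT vehicle (9.28% of all genes). On PFOA, 0 members differed at that level between KO and WT (7.65% of all genes), and Foxj1 alone between KI and WT (0.78, SE 0.29, edgeR adjusted p = 0.67, where 5.41% of all genes had such a p). Called were 0 members in each of these comparisons, where 1.36% (KO on vehicle), 1.01% (KO on PFOA), 0.85% (KI on vehicle) and 0.527% (KI on PFOA) of all genes were called.

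The next question was whether the regulators moved with the cilium content of the library. Cilium content was scored as the mean log2 CPM of 32 genes of the motile axoneme and its assembly, among them Dnah5 (outer dynein arm heavy chain), Ccdc39 (a ruler of the inner arms), Rsph1 (radial spoke) and Hydin (central pair). None of the 10 members was in this list. Fewer ciliated cells and less cilium RNA per cell cannot be told apart in whole lung. The score was 4.49 and 5.69 in WT vehicle libraries 107 and 122, and 4.07, 4.16 and 4.49 in WT PFOA libraries 50, 56 and 65. It was 5.59, 4.56 and 4.6 in KO vehicle libraries 137, 145 and 149, against 4.51, 4.42 and 4.49 in KO PFOA libraries 52, 154 and 155. In KI it was 4.98, 5.03 and 5.19 on vehicle (102, 116, 135) and 4.62, 4.37 and 5.35 on PFOA (57, 80, 139). The highest and the second-highest score thus came from the 2 libraries with the lowest protein-coding share, and WT vehicle library 107 had the score of WT PFOA library 65.

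Foxj1 followed the score most closely. Over 17 libraries its log2 CPM correlated with it at Pearson r = 0.95 (permutation p = 1e-05, the smallest that 100000 resamples can give) and Spearman rho = 0.86 (permutation p = 4e-05). Of all genes, those of the score included, 0.0705% had an r as high. Without libraries 122 and 137, the farthest from the median score, r was 0.93, and with the mean of each group subtracted it was 0.96. The SD of Foxj1 over the libraries was 0.52 on the log2 scale and that of the score 0.48, but the SD of their difference was 0.16. In log2 units, Foxj1 minus the score was 0.47 to 0.53 in KI vehicle libraries. WT vehicle (0.37 and 0.44), WT PFOA (0.05 to 0.38) and KO vehicle (0.084 to 0.22) lay below this range. KO PFOA (0.31 to 0.48) and KI PFOA (0.22 to 0.52) overlapped it, so a high value was not particular to KI vehicle. These differences were not tested.

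**Figure D3:**
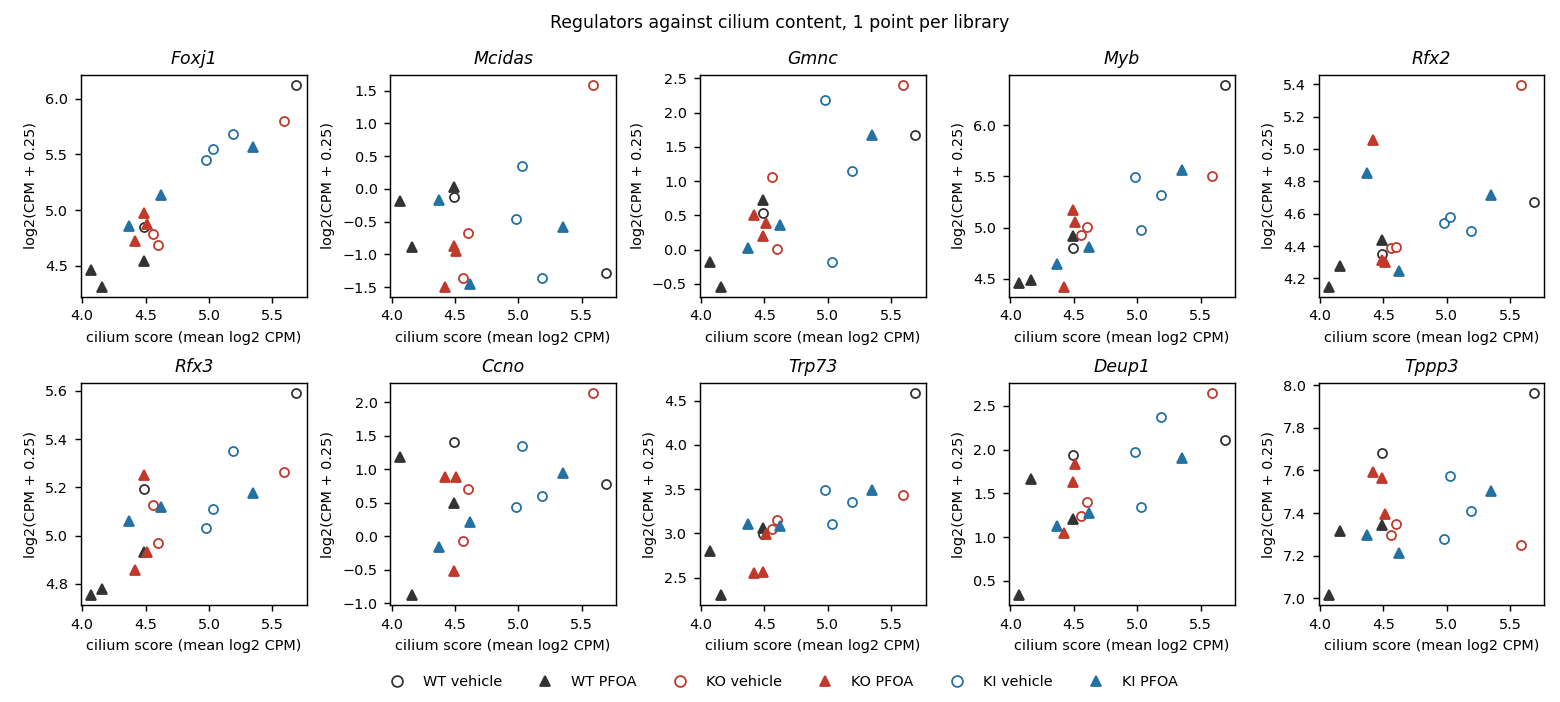
Log2(CPM + 0.25) of each gene (vertical axes) against the cilium score of the library, the mean log2 CPM of 32 cilium genes (horizontal axes), 1 point per library, with open circles for vehicle and filled triangles for PFOA. Foxj1 forms a narrow rising band (r = 0.95), while Mcidas (r = 0.22) and Tppp3 (r = 0.43) scatter widely.

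Myb (r = 0.89, rho = 0.87, permutation p = 1e-05 and 2e-05) and Trp73 (r = 0.83, rho = 0.86, permutation p = 1e-05 and 4e-05) came next, with 0.527% and 1.05% of all genes at an r as high. Gmnc (r = 0.79, rho = 0.69), Rfx3 (r = 0.79, rho = 0.69) and Deup1 (r = 0.74, rho = 0.68) followed, with permutation p values of 0.00032, 0.00021 and 0.00042 for r and 0.00278, 0.00271 and 0.00386 for rho. Without libraries 122 and 137 these 5 had r of 0.85, 0.78, 0.68, 0.67 and 0.63. For Rfx2, r = 0.55 (permutation p = 0.0213, rho = 0.47 with p = 0.0612) dropped to 0.31 without those libraries (permutation p = 0.265), so its relation rested on them. Ccno (r = 0.48, rho = 0.30, permutation p = 0.053 and 0.241), Tppp3 (r = 0.43, rho = 0.18, permutation p = 0.0803 and 0.486) and Mcidas (r = 0.22, rho = 0, permutation p = 0.39 and 1) did not pass. In all, 10 correlations were computed, 7 had p under 0.05 for r and 6 for rho, and the p values are not adjusted. The median r was 0.76 for the members and 0.02 for all genes. The points share library, depth and normalization.

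Within groups, a slope on the score was fitted to every gene with edgeR, beside a term for each of the 6 groups. A slope of 1 means that the gene doubles when the cilium genes double on average. At an adjusted p under 0.05, 4 of the 10 members were called, against 3.28% of all genes with a positive slope. They were Foxj1 (slope 0.94, SE 0.11, edgeR adjusted p = 2.84e-05), Myb (0.98, SE 0.16, adjusted p = 0.000973), Trp73 (0.78, SE 0.21, adjusted p = 0.0237) and Gmnc (1.62, SE 0.48, adjusted p = 0.0446). The slopes of Foxj1 and Myb lay within 1 SE of 1. Deup1 had a similar slope, 0.84, with a wider error (SE 0.33, adjusted p = 0.133), as did Mcidas (0.82, SE 0.90) and Ccno (0.74, SE 0.56). Rfx2 (0.44, SE 0.19), Rfx3 (0.26, SE 0.11) and Tppp3 (0.15, SE 0.11) had the shallowest slopes. All 10 slopes were positive, with a median of 0.80 against 0.043 over all genes.

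Rfx3 and Tppp3 thus varied little where cilium content varied much. Their SD over the 17 libraries was 0.21 and 0.22 on the log2 scale, the lowest of the 10. In KO vehicle library 137, with a score of 5.59, Tppp3 was at 152 CPM, the lowest of its group, while Foxj1 was at 55.5 CPM, the highest of its group. In WT vehicle library 122, with a score of 5.69, Tppp3 was at 249 CPM, the highest of all.

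The protein-coding share of a library moved with the score (r = -0.83, rho = -0.83, permutation p = 1e-05 and 7e-05, n = 17) and did so without libraries 122 and 137 as well (r = -0.79, n = 15). Foxj1 had r = -0.77 with that share. Its correlation with the score was 0.89 after both were regressed on the share, and that of Myb was 0.74, of Trp73 0.66, of Rfx3 0.61, of Deup1 0.54 and of Gmnc 0.53. It was -0.025 for Rfx2, 0.10 for Ccno and -0.19 for Mcidas. With the share added to the slope fit, an alternative chosen after the values were seen, 0 members were called. Called slopes of either sign fell over all genes as well, from 7.98% to 0.0854%. The slopes of Foxj1 (0.59, SE 0.20, edgeR adjusted p = 0.527), Myb (1.21, SE 0.33, adjusted p = 0.303), Gmnc (1.67, SE 1.06) and Trp73 (0.78, SE 0.43) stayed positive with errors 1.5 times as large or more. Without libraries 122 and 137, which left a single WT vehicle library, the slope was 0.67 (SE 0.16) for Foxj1 and 1.01 (SE 0.25) for Myb. It was 0.55 (SE 0.31) for Trp73 and 1.86 (SE 0.90) for Gmnc. Each of these errors was wider than with all libraries.

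**Figure D4:**
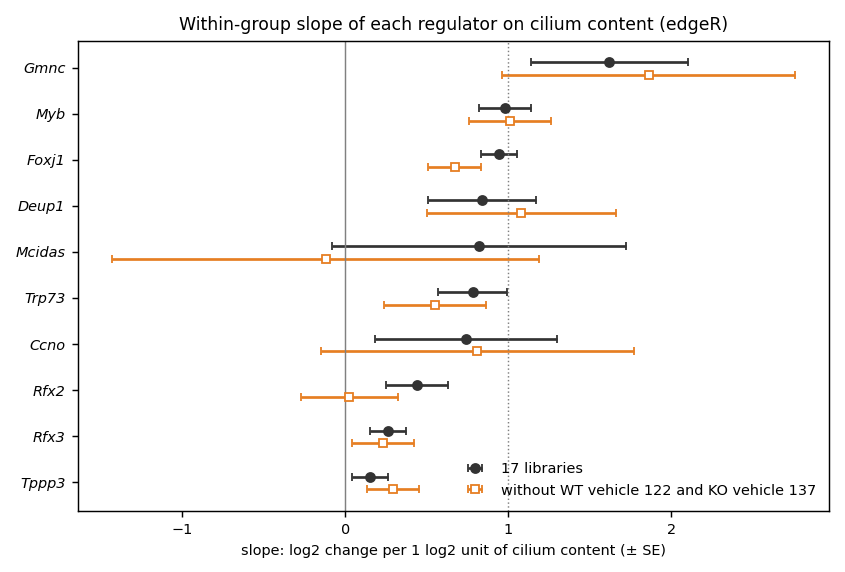
Slope of each gene on cilium content from edgeR (horizontal axis, log2 change per log2 unit of the score) with its standard error, over 17 libraries and without WT vehicle library 122 and KO vehicle library 137. The dotted line marks a slope of 1. Foxj1 lies at 0.94 with all libraries and at 0.67 without both, Myb at 0.98 and 1.01, while Rfx3 and Tppp3 lie between 0.15 and 0.29.

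Other cell types moved with the score in the same slope fit. Among 8 club cell markers, 6 had a positive slope past the threshold, including Scgb1a1 (0.65, SE 0.18), the main club cell secretory protein. Among markers of the alveoli, 5 of 6 type 2 genes (median slope -1.02) and 4 of 5 type 1 genes (median -0.71) had a negative one, as did 4 of 5 endothelial genes (median -0.60). The summed type 2 markers ranged from 3150 CPM in KO vehicle library 137 and 4610 CPM in WT vehicle library 122 to 9947 CPM in WT vehicle library 107. No basal, cycling, T or neuroendocrine marker passed. Within WT, 4 of 8 club cell markers had an unadjusted p under 0.05 and were lower on PFOA (median -0.51), and 4 of 6 T cell markers were higher (median 1.19). Krt5, the defining basal cell keratin, was at 0 in 7 of the 17 libraries, both WT vehicle libraries among them, and at most 3.72 CPM in the others. The part of airway content in the regulators' differences was not tested apart from the score.

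With the cilium score as a covariate, the WT contrast of the regulators shrank. Foxj1 had a log2 fold change of -0.27 (SE 0.17), Myb -0.18 (SE 0.25), Trp73 -0.46 (SE 0.33) and Deup1 -0.28 (SE 0.51), while Gmnc turned to 0.17 (SE 0.82) and Rfx2 to 0.14 (SE 0.30). Rfx3 at -0.35 (SE 0.17) and Tppp3 at -0.47 (SE 0.16) moved less. Tppp3 kept a value of this size under each fit shown, but its edgeR adjusted p with the covariate was 0.781. The median of the members went from -0.83 to -0.23.

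The genes downstream and upstream of the 10 gave the frame. All 32 cilium content genes were lower on PFOA in WT (median log2 fold change -0.98). An unadjusted p under 0.05 was reached by 27 of them, against 7.34% of all genes. The summed CPM of these genes was 2530 in WT vehicle library 122 but 1086 in library 107, against 814 to 1112 on PFOA. The size of the WT difference thus rested on library 122 here too. In KO, 9 of 32 had an unadjusted p under 0.05 and were lower (median -0.52), against 9.79% of all genes. In KI 0 had one (median -0.24), against 2.59% of all genes. The summed CPM in KO was 2695 in vehicle library 137, 1227 and 1272 in vehicle libraries 145 and 149, and 1050 to 1177 on PFOA. A further 18 cilium genes had been picked by the study on these libraries, as was Foxj1, so their 18 of 18 in WT (median -1.36) is no independent evidence of direction. On the slope fit all 18 passed, as did the 32 genes that make up the score and so had to follow it. In WT, 13 of the 32 genes had all PFOA libraries below both vehicle libraries, against 10.8% of all genes. In KO 10 of 32 lay below all vehicle libraries (5.99% of all genes) and in KI 0 of 32 (3.79% of all genes).

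Of 12 genes for centriole assembly and amplification, 2 had an unadjusted p under 0.05 in WT, where 7.34% of all genes had one. Both were lower on PFOA, with a list median of -0.30. They were Plk4, the kinase that starts centriole duplication (log2 fold change -0.71, SE 0.27), and Cep135, a cartwheel protein (-0.47, SE 0.19). On the slope fit, 2 of 12 passed, and these were other genes: Ccdc78, a deuterosome component (slope 1.31, SE 0.17), and Cep152, which recruits PLK4 (0.63, SE 0.16). Plk4 had a slope of 0.093 (SE 0.21). Of 16 co-regulators and Notch pathway genes, 3 had an unadjusted p under 0.05 in WT and were lower: E2f4 (-0.38, SE 0.18) and Tfdp1 (-0.38, SE 0.17), partners of multicilin, and the Notch ligand Jag1 (-0.44, SE 0.18). The list median was -0.027, and 0 of 16 passed on the slope fit. Neither list had a called gene in WT. E2f4 was at 47.3 CPM in WT vehicle library 107, inside the PFOA range of 45.7 to 49.6, and at 78.7 in library 122. Jag1 in library 107 (83.9 CPM) lay below PFOA library 65 (88.9 CPM). For Cep135, library 107 (37.4 CPM) lay just above PFOA library 65 (36.9 CPM). In Plk4 and Tfdp1, library 107 (7.85 and 22.1 CPM) lay above the highest PFOA library (6.72 and 18.6 CPM).

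The genes most like Foxj1 over the 17 libraries, out of 19200 genes that averaged 1 CPM or more, were sought by the Pearson r of log2 CPM. Of the 30 with the highest r, 13 were in the cilium lists. The leading 5 outside any list were Nme9 (r = 0.95), the axonemal dynein gene Dnah7b (0.95), Ubxn10 (0.94), the intraflagellar transport gene Traf3ip1 (0.94) and Gm12695 (0.94). Without libraries 122 and 137 these values were 0.92, 0.95, 0.90, 0.90 and 0.90. Nme9 had a slope of 1.13 (SE 0.17) on the score and Dnah7b one of 0.74 (SE 0.10).

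Genes annotated on the opposite strand overlap 4 of the members: Trp73os with Trp73, 4930540M03Rik with Deup1, Gm26577 with Myb and Gm20407 with Rfx3. How the counting used the strand is not given in the sources used here, so reads of these pairs may not have been kept apart.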

How the data were processed

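The authors made stranded total RNA libraries from frozen whole lungs, trimmed and aligned the reads to mm10, and quantified genes by expectation maximization. The submitters' processing notes name STAR 2.6, Partek and DESeq2 3.5. The annotation release and the strand setting of the counting are not given in the sources used here. The authors deposited estimated counts per gene without normalization, of which 26.1% are not whole numbers (beyond 0.01). One WT vehicle library that the study left out is not analysed here. Columns outside the sample list numbered 0.

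The estimated counts were rounded, the 26946 genes that reached 20 counts in total were tested, and edgeR 4.0.16 in R 4.3.3 fitted TMM-scaled counts by quasi-likelihood, with 6 group terms over 17 libraries. Benjamini-Hochberg adjustment ran over all tested genes, and a gene was called below 0.2 with more than a 2-fold change, the thresholds of the paper's text, or below 0.05 for the slope. Cilium content was the mean log2 CPM (prior count 2) over 32 of 34 listed genes, since Dnai1 and Dnai2 were not matched by symbol. Correlations used two-sided permutation tests over libraries, which do not keep the groups apart.

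The members and gene lists were chosen with earlier results of these data known. The genes named are the 10 members, 4 cilium genes, the genes of the centriole and co-regulator lists with an unadjusted p under 0.05 in WT or a called slope, and the 5 genes most like Foxj1. Scgb1a1, Krt5 and Ppara are named beside these. DESeq2 1.42.0, other scalings, filters and covariates, and each library left out were alternatives. Replicates were separate mice, and libraries of a group differed by more than sampling noise (the lowest chi-square per degree of freedom was 5.75). The fits were tested on simulated data. Gene positions and exon lengths come from GENCODE M21 (GRCm38), which held 96.7% of the table's gene names, 99.4% of them with the same start. Start windows are from RefSeq (GRCm38.p6), and the printed stretches were cut where they ran into the annotated span of their own gene. Tables were handled with Python 3.11.15, numpy 2.4.6, pandas 2.3.3 and scipy 1.17.1, and figures drawn with matplotlib 3.10.9.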

Additional observations from a re-analysis of the deposited data

How the results depend on the processing

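No paired analysis was possible because mouse numbers are unique to each library. The called count was unchanged at 0 members in the exposure, genotype and difference comparisons under every alternative that kept all libraries. The alternatives "without libraries 122 and 137" and "protein-coding share" were chosen after seeing the data. Of all genes, 2.59% to 14.2% had an unadjusted p under 0.05 in the main comparisons of groups, and these shares moved between fits too. With protein-coding share they were 4.15% for PFOA in KI and 4.75% over the 3 genotypes. In genotype comparisons with it they were 11.1% for KO against WT on PFOA and 13% for KI against WT on vehicle. Moves between 0, 1 and 2 members are near such shares and are no result about the members. Counts without both libraries come from fits with a single WT vehicle library. Counts of members with such a p that moved by over 1.5 times are as follows. PFOA in WT, 5, became 1 with cilium content as covariate and 1 without both libraries. PFOA in KO, 0, became 1 with cilium content. PFOA in KI, 0, became 1 without both libraries and 1 with protein-coding share. Over the 3 genotypes, 6 became 0 with cilium content, 0 without both and 1 with protein-coding share. KO against WT on vehicle, 2, became 1 with DESeq2, filterByExpr (which left out Mcidas), sex, second index or cilium content, and 0 without both. KO against WT on PFOA, 0, became 1 with DESeq2, RLE factors, filterByExpr or protein-coding share and 2 without both. KI against WT on vehicle, 1, became 0 with second index and 2 with protein-coding share. KI against WT on PFOA, 1, became 0 with cilium content and 3 without both. The KO minus WT difference, 2, became 1 with DESeq2, RLE factors, filterByExpr, sex, second index or without both. The KI minus WT difference, 3, became 0 with second index, 1 with cilium content, 0 without both and 1 with protein-coding share. Called slopes, 4, became 2 without the WT vehicle group, 0 without both and 0 with protein-coding share. Over all genes, called slopes of either sign went from 7.98% to 4.14% without the WT vehicle group and to 0.0854% with protein-coding share. They fell over all genes without both libraries as well. The cause of these moves was not tested.

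The signs listed next (log2 scale) are those of the exposure effects, the slopes and Trp73 in KO against WT on vehicle. Other genotype values turned too: in KI against WT on vehicle, Foxj1 was 0.73, Myb 0.49 and Trp73 0.34 without both libraries. With cilium content as covariate, in WT Gmnc was 0.17 and Rfx2 0.14; in KO Foxj1 0.19, Myb 0.18, Rfx2 0.061, Rfx3 0.011 and Deup1 0.10; in KI Myb 0.0014, Rfx3 0.023 and Trp73 0.12; over the 3 genotypes Myb 0.039 and Rfx2 0.14. With protein-coding share, Rfx2 was 0.082 in WT, 0.077 in KO and 0.088 over the 3 genotypes, in KO Foxj1 was 0.11, Myb 0.043 and Deup1 0.0069, and slopes were -1.43 for Mcidas, -0.18 for Rfx2 and -0.24 for Ccno. Without both libraries, Mcidas was -0.21 in WT, in KO Foxj1 was 0.12, Rfx2 0.22, Ccno 0.23 and Deup1 0.23, Rfx2 was 0.10 over the 3 genotypes, Trp73 was 0.12 in KO against WT on vehicle, and Mcidas had a slope of -0.12 and r = -0.011. With second index in KO, Rfx3 was 0.034 and Ccno 0.57.

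Leaving out 1 library at a time gave these ranges. Called members ran from 0 to 3 in WT (3 without WT vehicle 107), and from 0 to 2 in KO against WT on vehicle, KI against WT on vehicle and the KI minus WT difference (each 2 without WT vehicle 107, where 6.38%, 5.3% and 1.3% of all genes were called), while called slopes ran from 2 (without WT vehicle 107 or 122) to 4. Members with an unadjusted p under 0.05 ran from 1 (without WT vehicle 122) to 6 for PFOA in WT, 0 to 2 in KO, 1 to 6 over the 3 genotypes, 0 to 5 for KO against WT on vehicle and 0 to 1 on PFOA, 0 to 4 for KI against WT on vehicle and 0 to 2 on PFOA, 1 to 5 for the KO minus WT difference and 0 to 5 for the KI minus WT difference. Signs crossed for Mcidas in WT (-0.22 to 1.70); in KO for Foxj1 (-0.51 to 0.12), Rfx2 (-0.49 to 0.22), Ccno (-1.10 to 0.23) and Deup1 (-0.62 to 0.23), each without KO vehicle 137; in KI for Mcidas (-1.03 to 0.33), Gmnc (-1.32 to 0.27), Rfx2 (-0.047 to 0.25), Rfx3 (-0.12 to 0.045) and Trp73 (-0.24 to 0.00056). They also crossed for Rfx2 over the 3 genotypes (-0.18 to 0.031), the Mcidas slope (-0.83 to 1.77) and r (-0.16 to 0.40), and Trp73 in KO against WT on vehicle (-1.39 to 0.23).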
